A study of Homo sapiens with 8 samples.

Results

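The genes of ribosome assembly and of RNA polymerase I were examined in a ribosome profiling study of human BJ-HRAS skin fibroblasts with and without the small nucleolar RNA SNORA13. Of 58 genes named for the set, 49 were found by gene name in both deposited tables, out of 11940 genes listed in either table. They comprised all 7 polymerase I genes, 20 of 25 factors of the large (60S) subunit, 21 of 24 factors of the small (40S) subunit, and NPM1 of the 2 abundant nucleolar proteins. NCL, EBNA1BP2, WDR12, NMD3, DDX56, NIP7, UTP4, WDR75 and IMP4 were not listed.

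Ribosome profiling sequences the pieces of mRNA that ribosomes shield from nuclease, so a gene's footprint reads follow the amount of its mRNA and its translation together. Matched RNA was not analysed here, and those 2 quantities cannot be told apart. The 4 groups, each with 2 clones, were SNORA13 knockout (KO) clones 66 and 69 after 7 days of 100 nM 4-OHT, the same KO clones without 4-OHT, WT clones 15 and 54 after the same 4-OHT treatment, and the same WT clones without it. All carry BJ-HRAS in their genotype label. 4-OHT is (Z)-4-hydroxytamoxifen, an oestrogen receptor ligand often used to switch on engineered fusion proteins, and the labels do not say what it acts on in these cells. The knockout is represented by its 2 clones, so genotype and clone cannot be told apart, and the libraries with and without 4-OHT come in separate tables, so treatment and table cannot be told apart either.

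The series addresses how SNORA13 acts in ribosome production and senescence. Ribosome production starts in the nucleolus, where RNA polymerase I copies the ribosomal DNA into a long precursor. Small-subunit factors, many of them in a complex around the U3 small nucleolar RNA, fold and cut its first part, and large-subunit factors assemble the rest. Late factors then accompany each subunit into the cytoplasm and leave it there. Growth signals and MYC are known to raise the genes of this pathway, and stress on it can stabilise p53 through free ribosomal proteins.

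The values are reads per kilobase of gene and per library size (RPKM) over the whole gene span, introns included, so they are compared between libraries for the same gene and never between genes. The reads behind them were estimated from the steps of low values. They came to between 596426 and 1740927 per library, except for KO clone 66 with 4-OHT, which had 193658. Of the 49 genes, 22 overlap another protein-coding gene or long noncoding RNA in the annotation and 7 hold small nucleolar RNA genes, and their reads may include those of the neighbour. Those overlapping a protein-coding gene include GNL2 (DNALI1), POLR1C (XPO5), RRN3 (PDXDC1), NOP16 (ARL10), NOC2L (SAMD11) and HEATR1 (LGALS8). UBTF, POLR1A, POLR1B and MDN1 overlap long noncoding RNAs. In the shallow library 20 of the 49 genes had under 10 reads and 2 (RRN3 and NVL) were at 0, whereas between 0 and 5 genes had under 10 reads in each of the other libraries. The correlation of log2 values between the clones of a group was 0.897 in KO with 4-OHT, 0.955 in KO without it, 0.972 in WT with 4-OHT and 0.970 in WT without it. All 9 fibroblast markers were above 0 in every library, with summed levels of 2150 to 2726 RPKM with 4-OHT and 3045 to 3769 RPKM without it. Of the keratinocyte, epithelial, melanocyte and endothelial markers, few were listed, and KRT5, KRT14, MLANA and TYR were not. KRT10, the 1 of 6 keratinocyte markers listed, had 2.26 to 10.2 RPKM with 4-OHT and 0 to 0.843 RPKM without it, and the epithelial, melanocyte and endothelial markers each summed to at most 0.349 RPKM in any library. Of 5 leukocyte markers PTPRC and CD14 were listed, with summed levels of 17.5 to 50.4 RPKM with 4-OHT and 14.2 to 20.2 RPKM without it. Their part in the results was not tested. Of SNORA13, its host gene EPB41L4A-AS1, EPB41L4A and HRAS, only EPB41L4A was listed, at 0 in all but 1 library, so the files do not check the knockout.

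With 4-OHT, factors of both ribosomal subunits took up a larger share of the footprints in KO and in WT clones alike. The polymerase I genes summed took up a smaller share in both, a direction that reversed when UBTF and POLR1A were left out. The 20 large-subunit factors held 22.9 and 20.4 of every 10000 reads in KO clones 66 and 69 with 4-OHT, against 13.1 and 12.5 in the same clones without it. In WT clones 15 and 54 they held 20.2 and 20.7 of every 10000 with 4-OHT, against 12.1 and 12.3 without it. The groups did not overlap in either genotype, and the ratio of the means was 1.70 in KO and 1.67 in WT clones. The 21 small-subunit factors held 15.1 and 14.9 of every 10000 reads in KO clones with 4-OHT, against 10.1 and 10.9 without it. In WT clones they held 14.6 and 13.7 with 4-OHT, against 10.6 and 9.84 without it. Here too the groups were apart, at ratios of 1.43 in KO and 1.38 in WT clones. In bulk samples, fewer cells of a type and less RNA per cell cannot be told apart.

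The 7 polymerase I genes held 3.09 and 2.79 of every 10000 reads in KO clones 66 and 69 with 4-OHT, against 3.58 and 3.64 without it. In WT clones 15 and 54 they held 2.66 and 3.24 with 4-OHT, against 3.81 and 4.06 without it. The groups were apart at ratios of 0.814 in KO and 0.749 in WT clones, but the 95% counting interval of KO clone 66 with 4-OHT, 2.36 to 3.99 from 60 reads, spans the values of both KO clones without 4-OHT. UBTF and POLR1A, the genes called below, held much of the group's reads without 4-OHT. With them left out, a choice made after their values were seen, the other 5 genes held 2.32 and 1.67 of every 10000 reads in KO clones 66 and 69 with 4-OHT, against 1.49 and 1.63 without it, and 1.80 and 2.36 in WT clones 15 and 54 with 4-OHT, against 1.61 and 1.56 without it. The direction thus reversed, with the groups apart at ratios of 1.28 in KO and 1.31 in WT clones. The 95% counting interval of KO clone 69 with 4-OHT, 1.43 to 1.95, spans the values of both KO clones without it. No test was run on these sums, since 2 libraries against 2 allow only 3 distinct splits.

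A share of all reads depends on what the other genes do. When the libraries were rescaled so that the typical gene was level (median-ratio scaling), the ratios for the large-subunit factors were 1.34 in KO and 1.39 in WT clones. Those for the small-subunit factors were 1.13 and 1.15, and those for polymerase I were 0.644 and 0.622, with the groups still apart in each case. The other 5 polymerase I genes overlapped between groups on that scale.

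**Figure D1:**
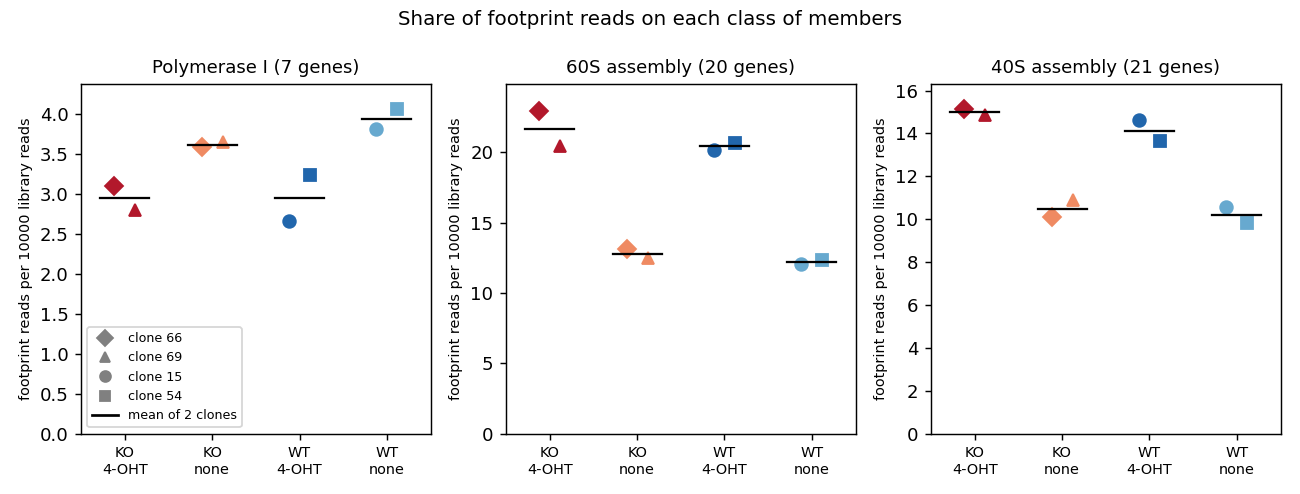
Footprint reads per 10000 library reads (vertical axes, from 0) on the polymerase I genes, the large-subunit factors and the small-subunit factors, with 1 point per library and a bar at the mean of 2 clones. The 4 libraries with 4-OHT lie above the 4 without it for both subunits (20.2 to 22.9 against 12.1 to 13.1, and 13.7 to 15.1 against 9.84 to 10.9) and below them for polymerase I (2.66 to 3.24 against 3.58 to 4.06). With UBTF and POLR1A left out, which is not drawn, the polymerase I ratio on this scale was 1.28 in KO and 1.31 in WT clones.

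Gene by gene, the change with 4-OHT was tested with limma-trend on log2(RPKM + 0.1) over 8765 genes, with p-values adjusted by Benjamini-Hochberg over all of them and a threshold of 0.05. Fold changes are on that log2 scale, which understates the change of low genes. All 49 listed genes had enough reads for the test. In KO clones 8 of the 49 rose with 4-OHT (16.3%) and 1 fell (2.04%), beside 15.8% and 9.56% of all genes tested. In WT clones 9 rose (18.4%) and 1 fell (2.04%), beside 12.6% and 7.03% of all genes. The share that rose was near that of all genes in both genotypes, so these counts are no result about the set as a whole. GNL2, GNL3, IMP3, RRP15, SBDS and TSR1 passed in both genotypes, which is 75% of the 8 called in KO and 66.7% of the 9 called in WT clones.

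The direction of the whole set, called or not, leaned upward. The median log2 fold change was 0.53 over the 49 genes in KO clones, beside 0.11 over all genes tested, and 0.55 in WT clones, beside 0.16. By class the medians in KO clones were 0.74 for the large subunit, 0.53 for the small subunit and -0.60 for polymerase I. In WT clones they were 0.63, 0.55 and -0.24 in the same order of classes. Both clones with 4-OHT lay above both without it for 23 of the 49 genes in KO clones and below for 7, beside 36.8% and 25.8% of all genes. In WT clones the counts were 32 above and 7 below, beside 41.5% and 27.5% of all genes. Median-ratio scaling moved the median of all genes to -0.14 in KO and -0.05 in WT clones. On that scale the large-subunit median was 0.41 in KO and 0.37 in WT clones, the small-subunit median 0.21 and 0.29, and the polymerase I median -0.90 and -0.48.

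The counts depended on the scale and the test. With median-ratio scaling 4 of the 49 rose and 3 fell in KO clones, beside 10.7% and 13.6% of all genes, and 4 rose and 1 fell in WT clones, beside 8.49% and 9.29%. Over all genes that scale gave 935 higher and 1191 lower in KO clones, where the values as deposited gave 1387 and 838, and 744 higher and 814 lower in WT clones, where the values as deposited gave 1108 and 616. With limma-voom on the estimated reads 14 rose and 1 fell in KO clones, beside 21.3% and 10.9% of all genes, and 15 rose and 4 fell in WT clones, beside 21.2% and 12.7%. With the clone as a block 6 rose and 1 fell in KO clones, beside 12.2% and 7.36%, and 6 rose and 0 fell in WT clones, beside 9.36% and 5.42%. Leaving out the shallow library, KO clone 66 with 4-OHT, gave 6 higher and 1 lower in KO clones, beside 12.2% and 7.49%. Leaving out KO clone 69 with 4-OHT gave 15 higher and 6 lower from clone 66 alone, beside 20.7% and 21.4%.

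**Figure D2:**
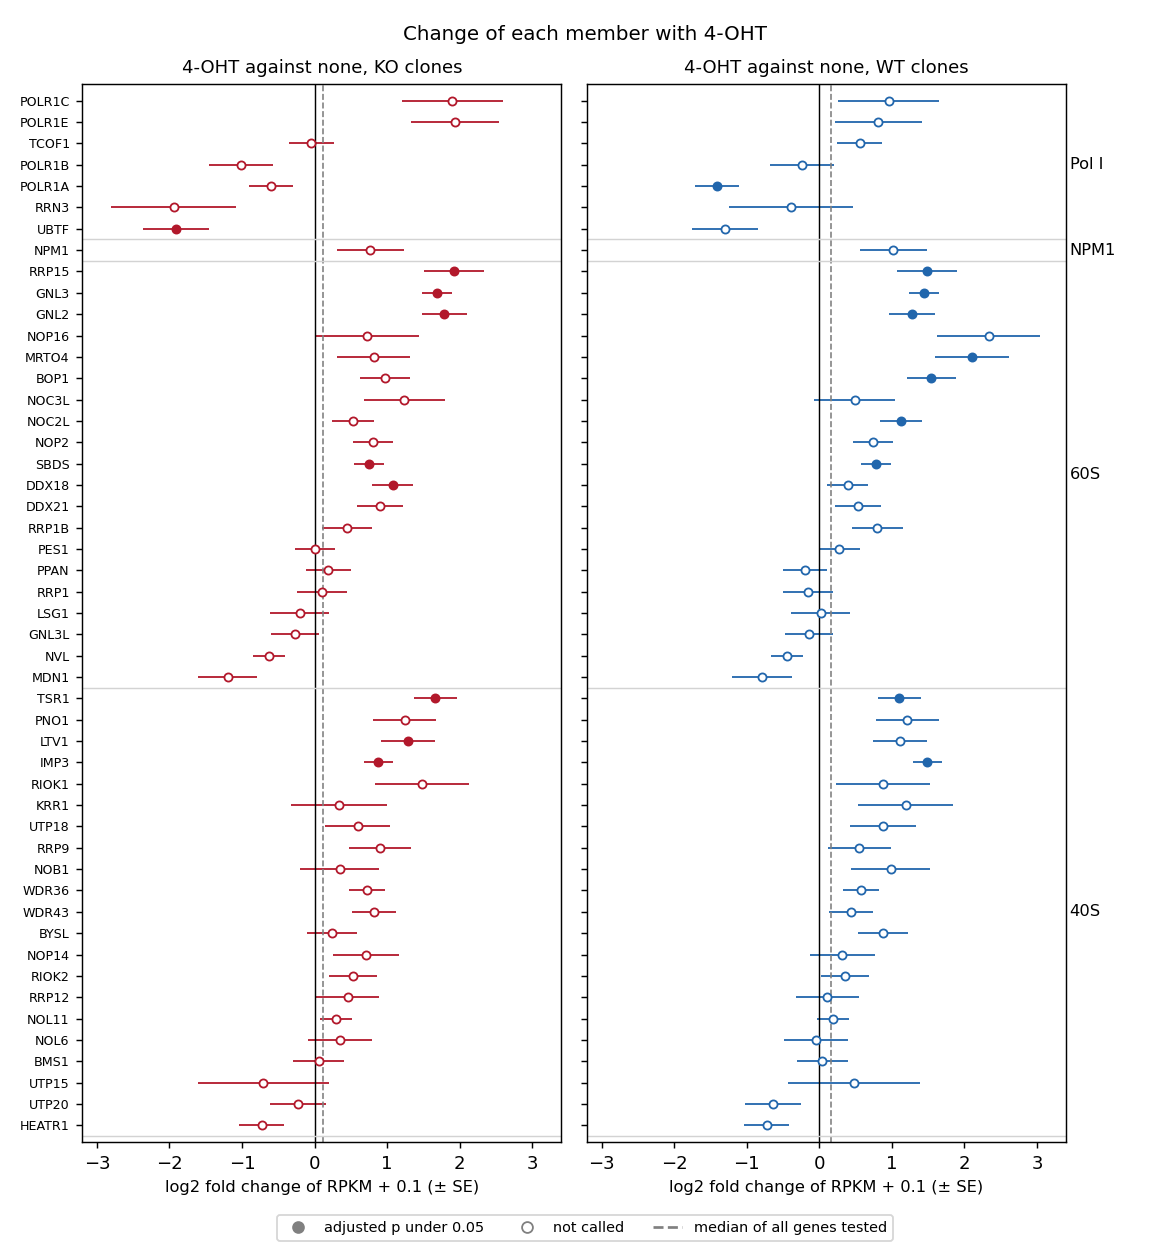
Log2 fold change of RPKM + 0.1 with 4-OHT against without it (horizontal axes, points with standard errors) for each of the 49 genes in KO clones (left) and WT clones (right), filled where the adjusted p is under 0.05, with a dashed line at the median of all genes tested. Points of the large- and small-subunit factors lie mostly right of the dashed lines at 0.11 and 0.16, and UBTF and POLR1A lie left of 0 in both panels.

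The promoters of 5 genes that passed are shown for the E-box, a motif known from this gene class, which 3 that rose hold and the 2 that fell do not. The E-box CACGTG, which MYC and related factors bind and which reads the same on both strands, was in 15 of the 43 members with a promoter in the RefSeq table of GRCh38.p14 (34.9%), against 8.88% of 15842 protein-coding promoters. Each promoter runs from 250 bases before to 50 after the start site. The motif was in 6 of 17 large-subunit, 9 of 20 small-subunit and 0 of 5 polymerase I promoters. Sequences are 5′ to 3′ on the gene's strand, with E-boxes in capitals. GNL2 (chr1:37595888-37596187, minus strand), MRTO4 (chr1:19251555-19251854, plus strand) and LTV1 (chr6:143843088-143843387, plus strand) hold it, and UBTF (chr17:44220833-44221132, minus strand) and POLR1A (chr2:86105837-86106136, minus strand) do not. The UBTF window lies wholly inside the gene's span (chr17:44205040-44221304), so it belongs to a start site within the span, and the sequence at the outer end was not searched.
GNL2: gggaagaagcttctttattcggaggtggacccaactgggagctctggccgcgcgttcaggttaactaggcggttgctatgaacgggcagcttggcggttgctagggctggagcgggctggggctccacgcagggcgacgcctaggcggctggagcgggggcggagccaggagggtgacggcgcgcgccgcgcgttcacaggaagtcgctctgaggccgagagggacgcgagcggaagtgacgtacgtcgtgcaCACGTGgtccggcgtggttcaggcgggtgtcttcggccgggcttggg
MRTO4: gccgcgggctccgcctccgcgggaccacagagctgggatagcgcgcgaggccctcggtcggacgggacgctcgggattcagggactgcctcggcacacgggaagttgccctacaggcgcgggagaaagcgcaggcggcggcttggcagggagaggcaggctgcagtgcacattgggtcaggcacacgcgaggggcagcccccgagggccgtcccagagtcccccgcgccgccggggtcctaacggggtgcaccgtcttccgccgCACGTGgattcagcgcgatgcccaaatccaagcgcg
LTV1: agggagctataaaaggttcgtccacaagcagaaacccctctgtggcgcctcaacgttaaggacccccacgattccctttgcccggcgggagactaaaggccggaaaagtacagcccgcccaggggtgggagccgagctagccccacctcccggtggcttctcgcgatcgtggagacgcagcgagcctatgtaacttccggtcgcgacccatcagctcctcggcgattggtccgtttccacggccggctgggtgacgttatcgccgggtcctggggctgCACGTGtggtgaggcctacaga
UBTF: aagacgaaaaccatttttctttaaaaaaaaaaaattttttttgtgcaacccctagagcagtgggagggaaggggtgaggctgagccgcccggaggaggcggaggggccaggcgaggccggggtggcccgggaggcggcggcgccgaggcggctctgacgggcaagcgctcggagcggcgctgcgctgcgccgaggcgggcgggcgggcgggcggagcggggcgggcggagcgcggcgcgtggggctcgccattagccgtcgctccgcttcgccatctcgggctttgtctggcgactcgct
POLR1A: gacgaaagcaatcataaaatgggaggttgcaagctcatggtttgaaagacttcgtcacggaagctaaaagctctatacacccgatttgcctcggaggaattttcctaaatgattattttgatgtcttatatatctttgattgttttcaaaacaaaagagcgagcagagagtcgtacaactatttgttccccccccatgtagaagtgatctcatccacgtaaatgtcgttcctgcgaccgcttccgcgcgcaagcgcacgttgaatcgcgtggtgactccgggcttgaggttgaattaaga
The calls came from genes with and without the motif. In KO clones 2 of 15 genes with an E-box rose (GNL2 and LTV1), beside 5 of 28 without one, and in WT clones 2 of 15 (GNL2 and MRTO4), beside 6 of 28. The promoters of GNL3, RRP15, SBDS, TSR1, IMP3 and NOC2L, which rose too, hold none in this window. The 3 shown with an E-box are all the called genes found to hold one, and BOP1 and DDX18 had no promoter to search. The ETS motif CCGGAAGT was in 20.9% of the members' promoters and 6.19% of all, the GC box GGGCGG in 67.4% and 58.5%, and CCAAT in 30.2% and 36.4%, each counted on both strands. A match describes the letters and is no sign that a factor is bound.

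UBTF and POLR1A were the genes of the set that fell. UBTF (chr17:44205040-44221304 in the GRCh38.p14 annotation of RefSeq), the architectural factor that binds the ribosomal DNA and keeps it open for polymerase I, had 0.947 and 2.82 RPKM in KO clones 66 and 69 with 4-OHT, against 6.55 and 6.41 RPKM in the same clones without it. In WT clones 15 and 54 it had 2.57 and 3.17 RPKM with 4-OHT, against 6.70 and 7.62 RPKM without it. All 4 libraries with 4-OHT lay below all 4 without it, and the lowest value rests on 3 reads. UBTF fell in KO clones (log2 fold change -1.91 ± 0.45 SE, limma-trend adjusted p = 0.0239). In WT clones the change of -1.29 ± 0.45 did not pass (adjusted p = 0.0949), although limma-voom gave an adjusted p of 8.83e-04 there and 0.0108 in KO clones.

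POLR1A (chr2:86020216-86105886), the largest subunit of the polymerase and part of its catalytic centre, had 0.734 and 0.796 RPKM in KO clones 66 and 69 with 4-OHT, against 1.24 and 1.18 RPKM without it. WT clones 15 and 54 had 0.526 and 0.436 RPKM with 4-OHT, against 1.35 and 1.52 RPKM without it. Again the 4 libraries with 4-OHT lay below the other 4. The fall passed in WT clones (log2 fold change -1.40 ± 0.30 SE, limma-trend adjusted p = 0.0199, but 0.0613 with the clone as a block) and not in KO clones (-0.60 ± 0.30, adjusted p = 0.184). The difference between the genotypes in this change was 0.80 with a 95% interval of -0.21 to 1.82, which includes 0.

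None of the other polymerase I genes passed by limma-trend. POLR1B, the other large catalytic subunit, had 0.297 and 0.578 RPKM in KO clones with 4-OHT, against 1.07 and 0.846 RPKM without it, and 0.959 and 0.482 RPKM in WT clones with 4-OHT, against 0.794 and 0.861 RPKM without it. The 0.297 RPKM of KO clone 66 rests on an estimated 2.1 reads. RRN3, which brings the polymerase to the promoter, was at 0 and 0.653 RPKM in KO clones 66 and 69 with 4-OHT, against 0.938 and 0.972 RPKM without it. In WT clones it had 0.657 and 1.09 RPKM with 4-OHT, against 1.01 and 1.29 RPKM without it, and these overlapped. The 0 of RRN3 comes from the shallowest library, where a count of 0 allows up to 3 reads.

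The subunits POLR1C and POLR1E lay on the other side. POLR1C, a subunit shared with RNA polymerase III, had 1.96 and 0.876 RPKM in KO clones with 4-OHT, against 0.0978 and 0.632 RPKM without it, and 0.576 and 0.861 RPKM in WT clones with 4-OHT, against 0.434 and 0.223 RPKM without it. POLR1E, a subunit particular to polymerase I, had 4.43 and 1.32 RPKM in KO clones with 4-OHT, against 0.375 and 0.823 RPKM without it, and 1.54 and 1.91 RPKM in WT clones with 4-OHT, against 1.11 and 0.784 RPKM without it. Both genes were higher in both clones of each genotype with 4-OHT, on 4 to 49 reads per library, and missed the threshold (limma-trend adjusted p = 0.087 and 0.055 in KO clones, 0.394 and 0.402 in WT clones). Limma-voom called POLR1C in KO clones (0.0446) and neither gene in WT clones. TCOF1, the treacle protein that supports ribosomal DNA transcription, had 1.35 and 1.48 RPKM in KO clones with 4-OHT, against 1.59 and 1.34 RPKM without it. Its WT values were 1.67 and 2.59 RPKM with 4-OHT, against 1.40 and 1.36 RPKM without it, with adjusted p of 0.933 in KO and 0.268 in WT clones.

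Among the large-subunit factors 5 of 20 rose in KO clones and 7 of 20 in WT clones (25% and 35%), beside 15.8% and 12.6% of all genes, and 0 fell in either. With median-ratio scaling 3 rose in each genotype (15%), beside 10.7% of all genes in KO and 8.49% in WT clones. On that scale MDN1 and NVL fell in KO clones (10%, limma-trend adjusted p = 0.0441 and 0.049), beside 13.6% of all genes. In KO clone 66 with 4-OHT, MDN1 and NVL rest on 2 and 0 reads. GNL3 (nucleostemin, chr3:52685920-52694497), a nucleolar GTPase abundant in proliferating cells, had 38.3 and 35.0 RPKM in KO clones 66 and 69 with 4-OHT, against 12.9 and 9.93 RPKM without it. In WT clones 15 and 54 it had 25.9 and 21.2 RPKM with 4-OHT, against 8.75 and 8.35 RPKM without it. The groups were far apart in both genotypes, at log2 fold changes of 1.68 ± 0.21 SE in KO (limma-trend adjusted p = 0.00242) and 1.45 ± 0.21 in WT clones (adjusted p = 0.00453). GNL3 passed under all 18 alternatives in both genotypes, with adjusted p of at most 0.0198 in KO and 0.0397 in WT clones. Its introns hold 5 small nucleolar RNA genes and its span overlaps GLT8D1, and since the counting by strand and feature is not stated, reads of these neighbours may be included.

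GNL2 (chr1:37566816-37595937), a related GTPase that prepares the precursor for export, had 10.6 and 6.36 RPKM in KO clones 66 and 69 with 4-OHT, against 1.90 and 2.79 RPKM without it. Its WT values were 6.82 and 6.47 RPKM with 4-OHT, against 2.55 and 2.82 RPKM without it. The 4 treated libraries exceeded the 4 untreated ones, with log2 fold changes of 1.79 ± 0.32 SE in KO (limma-trend adjusted p = 0.00815) and 1.28 ± 0.32 in WT clones (adjusted p = 0.0319, but 0.0816 with the clone as a block and 0.0608 with median-ratio scaling). RRP15 (chr1:218285293-218337983), a nucleolar factor of the early precursor, had 2.29 and 1.16 RPKM in KO clones with 4-OHT, against 0.337 and 0.377 RPKM without it, and 1.31 and 1.35 RPKM in WT clones with 4-OHT, against 0.330 and 0.504 RPKM without it. It was 4.83 times as high in the mean of KO and 3.19 times in that of WT clones, with limma-trend adjusted p of 0.0162 and 0.045 (in WT clones 0.0835 with the clone as a block and 0.0763 with median-ratio scaling).

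SBDS (chr7:66987680-66995586), which frees new large subunits of the factor EIF6 and is mutated in Shwachman-Diamond syndrome, had 29.8 and 21.5 RPKM in KO clones with 4-OHT, against 14.4 and 15.6 RPKM without it. WT clones had 24.4 and 26.0 RPKM with 4-OHT, against 14.9 and 14.2 RPKM without it. The rise was smaller than for GNL3 or GNL2 and closely alike in both genotypes, at log2 fold changes of 0.75 ± 0.20 SE in KO and 0.79 ± 0.20 in WT clones. It passed by limma-trend (adjusted p = 0.0371 and 0.0382) but not with the clone as a block (0.0744 and 0.0805) or with median-ratio scaling (0.175 and 0.130), nor in KO clones by limma-voom (0.054). SBDS has a near-identical pseudogene, and how reads that map to both were handled is not given in the sources used here.

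The remaining large-subunit calls by limma-trend came from 1 genotype each, and whether the genotypes differ is tested below. DDX18, an RNA helicase of the early precursor, had 5.92 and 5.07 RPKM in KO clones with 4-OHT, against 3.01 and 2.15 RPKM without it (log2 fold change 1.08 ± 0.28 SE, limma-trend adjusted p = 0.0329, but 0.0984 with median-ratio scaling). The WT clones showed 4.59 and 3.26 RPKM with 4-OHT, against 2.99 and 2.86 RPKM without it, a change that did not pass. BOP1, which forms a complex with PES1 and WDR12, had 2.66 and 4.97 RPKM in WT clones 15 and 54 with 4-OHT, against 1.16 and 1.20 RPKM without it (1.55 ± 0.34, adjusted p = 0.0221). In KO clones it had 3.39 and 2.81 RPKM with 4-OHT, against 1.43 and 1.61 RPKM without it (adjusted p = 0.0789). The BOP1 span also covers the gene SCX.

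MRTO4 (chr1:19251805-19260128), which in yeast holds the place of the ribosomal stalk protein, had 20.3 and 24.1 RPKM in WT clones 15 and 54 with 4-OHT, against 5.82 and 4.41 RPKM without it (log2 fold change 2.10 ± 0.50 SE, limma-trend adjusted p = 0.0291). In KO clone 66 it had 5.04 RPKM with 4-OHT, against 4.93 RPKM without it, and in KO clone 69 it had 16.6 RPKM with 4-OHT, against 5.41 RPKM without it. The KO clones thus differed from each other, and the value of clone 66 rests on 8 reads. MRTO4 missed the threshold in KO clones by limma-trend (adjusted p = 0.267) but passed there by limma-voom (0.00781) and, by limma-trend, without KO clone 66 with 4-OHT (0.00979). NOP16, a nucleolar protein of the same precursor, showed the same split. It had 3.12 and 13.4 RPKM in KO clones 66 and 69 with 4-OHT, against 2.87 and 5.23 RPKM without it, and 12.8 and 12.2 RPKM in WT clones 15 and 54 with 4-OHT, against 3.76 and 1.51 RPKM without it. The NOP16 value of KO clone 66 with 4-OHT rests on an estimated 2.8 reads, and that of WT clone 54 without 4-OHT on 5.5. In WT clones NOP16 missed the threshold by limma-trend (2.34 ± 0.71, adjusted p = 0.062) and passed with the clone as a block (0.0296) and by limma-voom (0.00286). NOC2L, an early nucleolar factor, had 8.0 and 11.4 RPKM in WT clones with 4-OHT, against 3.62 and 5.12 RPKM without it (1.13 ± 0.29, adjusted p = 0.0372, but 0.0998 with median-ratio scaling), and 5.57 and 7.24 RPKM in KO clones with 4-OHT, against 4.79 and 3.96 RPKM without it.

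Not every large-subunit factor lay higher. PES1, the partner of BOP1, had 2.24 and 2.91 RPKM in KO clones with 4-OHT, against 2.51 and 2.57 RPKM without it, and 2.90 and 3.07 RPKM in WT clones with 4-OHT, against 2.93 and 2.03 RPKM without it. Its log2 fold changes of 0.01 ± 0.28 SE in KO and 0.28 ± 0.28 in WT clones were within their errors. MDN1, the giant ATPase that strips factors from the precursor, had 0.0591 and 0.218 RPKM in KO clones with 4-OHT, against 0.463 and 0.373 RPKM without it. The 0.0591 RPKM of KO clone 66 rests on 2 reads and lies below the added constant of 0.1. In WT clones MDN1 had 0.174 and 0.211 RPKM with 4-OHT, against 0.503 and 0.321 RPKM without it. MDN1 lay lower in both genotypes without passing by limma-trend (adjusted p = 0.0722 and 0.230), and passed in WT clones by limma-voom (0.013) and in KO clones with median-ratio scaling. NVL, another ATPase, was on at most 14 reads in any library. GNL3L, LSG1, PPAN and RRP1 had log2 fold changes between -0.27 and 0.19, none of which passed.

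**Figure D3:**
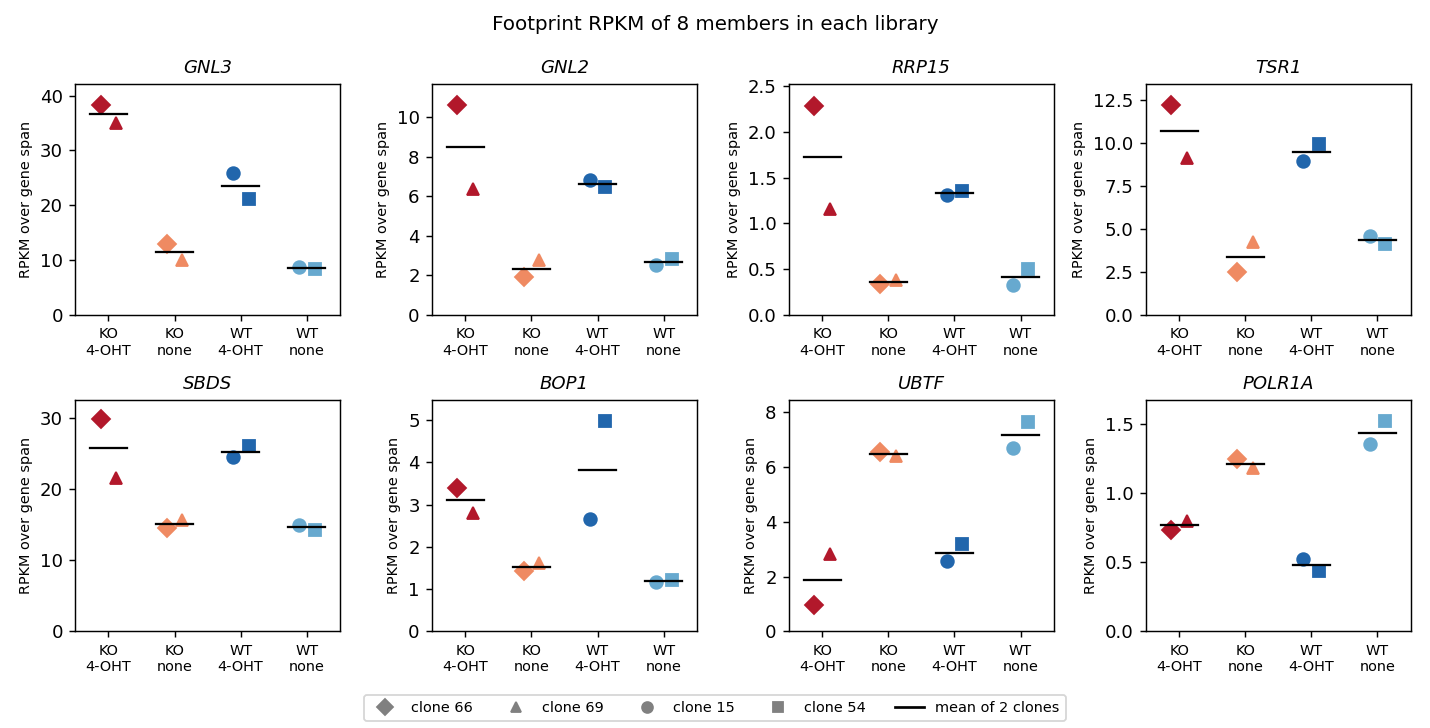
RPKM over the gene span (vertical axes, from 0) of GNL3, GNL2, RRP15, TSR1, SBDS, BOP1, UBTF and POLR1A in each of the 8 libraries, with 1 symbol per clone and a bar at the mean of 2 clones. The first 6 genes lie higher in all libraries with 4-OHT than in all without it (GNL3 21.2 to 38.3 against 8.35 to 12.9 RPKM), and UBTF and POLR1A lie lower (UBTF 0.947 to 3.17 against 6.41 to 7.62 RPKM).

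Among the small-subunit factors 3 of 21 rose in KO clones (14.3%) and 2 of 21 in WT clones (9.52%), which is no more than the 15.8% and 12.6% of all genes, and 0 fell. With median-ratio scaling 1 rose in each genotype (4.76%), TSR1 in KO and IMP3 in WT clones, beside 10.7% and 8.49% of all genes. The called genes belong to both ends of the pathway. TSR1 (chr17:2322396-2336457), which sits on the late precursor and keeps it from joining translation early, had 12.2 and 9.16 RPKM in KO clones 66 and 69 with 4-OHT, against 2.51 and 4.25 RPKM without it. In WT clones 15 and 54 it had 8.97 and 9.96 RPKM with 4-OHT, against 4.59 and 4.13 RPKM without it. The log2 fold change was 1.66 ± 0.30 SE in KO (limma-trend adjusted p = 0.00855) and 1.10 ± 0.30 in WT clones (0.0422, but 0.0957 with the clone as a block and 0.0895 with median-ratio scaling). TSR1 overlaps SRR and holds 2 small nucleolar RNA genes, so its reads may include theirs. LTV1, another late factor, had 5.12 and 4.33 RPKM in KO clones with 4-OHT, against 1.95 and 1.80 RPKM without it (1.28 ± 0.37, adjusted p = 0.0447, but 0.101 with median-ratio scaling). WT clones had 4.58 and 2.65 RPKM with 4-OHT, against 2.07 and 1.17 RPKM without it, and did not pass (1.11 ± 0.37, adjusted p = 0.0834), although limma-voom called the change (0.0129).

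IMP3, a protein of the U3 small nucleolar ribonucleoprotein that acts at the start of the pathway, had 10.9 and 9.52 RPKM in KO clones with 4-OHT, against 5.30 and 5.71 RPKM without it. Its WT values were 11.4 and 13.2 RPKM with 4-OHT, against 4.56 and 4.07 RPKM without it. It passed by limma-trend in KO (log2 fold change 0.88 ± 0.20 SE, adjusted p = 0.0209) and WT clones (1.49 ± 0.20, adjusted p = 0.00377). The values rest on 2 to 22 reads per library, and limma-voom, which weighs the reads, did not call IMP3 (adjusted p = 0.396 and 0.154). With the clone as a block the adjusted p was 0.0586 in KO clones and 0.0195 in WT clones.

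PNO1, which with NOB1 guides the last cut of the small-subunit rRNA, had 1.43 and 3.44 RPKM in KO clones with 4-OHT, against 0.846 and 0.924 RPKM without it. In WT clones it had 3.94 and 2.87 RPKM with 4-OHT, against 1.57 and 1.24 RPKM without it. Both genotypes were higher with 4-OHT in both clones and missed the threshold by limma-trend (adjusted p = 0.0782 in KO and 0.101 in WT clones), and both passed by limma-voom (0.00852 and 0.00999). NOB1, the nuclease of that cut, had 2.81 and 3.59 RPKM in KO clones with 4-OHT, against 2.04 and 3.0 RPKM without it. The WT clones showed 3.32 and 3.90 RPKM with 4-OHT, against 0.927 and 3.29 RPKM without it, and the change passed in neither genotype by limma-trend (adjusted p = 0.662 and 0.259) and in WT clones by limma-voom (0.0396). The late kinases RIOK1 and RIOK2 had log2 fold changes between 0.35 and 1.48 and did not pass. BYSL, at 0.24 in KO and 0.88 in WT clones, did not pass by limma-trend either, but limma-voom called it in WT clones (0.019).

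HEATR1, a large protein of the complex that loads onto the growing transcript, had 1.13 and 1.74 RPKM in KO clones with 4-OHT, against 2.62 and 2.19 RPKM without it. In WT clones it had 1.40 and 1.16 RPKM with 4-OHT, against 2.10 and 2.26 RPKM without it. It lay lower in both clones of each genotype with the same log2 fold change of -0.73 ± 0.31 SE, which did not pass by limma-trend (adjusted p = 0.128 and 0.155) and did in WT clones by limma-voom (0.043). UTP20, another large scaffold protein, had log2 fold changes of -0.23 in KO and -0.64 in WT clones, and BMS1, a GTPase of the same particle, of 0.05 and 0.04, none of which passed by limma-trend. NOL11, a partner of HEATR1, had 3.94 and 3.68 RPKM in KO clones with 4-OHT, against 3.13 and 3.01 RPKM without it, and 2.72 and 2.74 RPKM in WT clones with 4-OHT, against 2.39 and 2.38 RPKM without it. WDR36, WDR43, UTP18 and RRP9 had log2 fold changes between 0.44 and 0.90, and none passed by limma-trend. Limma-voom called UTP18 in both genotypes (0.0488 in KO and 0.0191 in WT clones) and WDR36 in KO clones (0.0491).

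NPM1 (nucleophosmin), a chaperone that is among the most abundant nucleolar proteins, had 1.10 and 1.76 RPKM in KO clones with 4-OHT, against 0.700 and 0.861 RPKM without it. WT clones had 1.52 and 3.29 RPKM with 4-OHT, against 1.30 and 0.851 RPKM without it. Both clones of each genotype were higher with 4-OHT, and neither change passed (limma-trend adjusted p = 0.252 and 0.174). The values rest on 5 to 61 reads per library. NPM1 has many processed pseudogenes, and reads shared with them may have been dropped or split.

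Fold changes were lower for genes with longer spans. Spearman's rho between span and log2 fold change was -0.32 in KO and -0.45 in WT clones across the 49 genes, and -0.18 and -0.25 across the 8765 genes tested, a description over genes of the same libraries. The 25 genes with spans up to the median of 26.6 kb had a median log2 fold change of 0.73 in KO and 0.81 in WT clones, and the 24 longer ones 0.25 and 0.36. HEATR1, MDN1, UTP20 and POLR1A are among the longer ones, and so are GNL2, RRP15 and BOP1, which rose. UBTF, which fell, is among the shorter ones. The part of span in these results was not tested.

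The response to 4-OHT did not differ detectably between genotypes for any of the 49 genes. The test of the difference (KO response minus WT response) called 0 of 8765 genes by limma-trend, with 366 at an unadjusted p under 0.05, and 0 of the 49, with 0 at that level. Limma-voom called 4 genes (0.0456% of those tested), none of them among the 49. The widest gaps by p were IMP3 (-0.61, 95% interval -1.29 to 0.06), POLR1A (0.80, -0.21 to 1.82), MRTO4 (-1.29, -2.98 to 0.40), DDX18 (0.68, -0.26 to 1.63) and NOP16 (-1.61, -3.99 to 0.77). The intervals are wide, and a p that misses the threshold does not show that the genotypes respond alike. Without KO clone 69 with 4-OHT, which leaves clone 66 as the lone treated KO library and takes its spread from the other groups, MRTO4 and RRN3 passed as lower, beside 4.35% of all genes lower and 0.394% higher.

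Knockout and WT clones were also compared at each treatment, on the 4 libraries of a table. With 4-OHT 0 of 48 tested members and 0 of 7748 genes passed by limma-trend, with 1 and 309 at an unadjusted p under 0.05, and limma-voom called 0 members and 52 genes (0.671%). Without 4-OHT 0 of 48 members and 0 of 8147 genes passed, with 0 and 644 at that level, and limma-voom called 0 members and 61 genes (0.749%). The class medians of the KO minus WT difference with 4-OHT were 0.01 for both subunits and -0.53 for polymerase I, beside -0.03 over all genes. Without 4-OHT they were 0.04 for the large subunit, -0.01 for the small subunit and -0.14 for polymerase I, beside -0.02.

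GNL3 was the member with the smallest p with 4-OHT. Its 38.3 and 35.0 RPKM in KO clones lay above the 25.9 and 21.2 RPKM of WT clones, a log2 difference of 0.64 (95% interval 0.08 to 1.20) with an adjusted p of 0.814 by limma-trend. Without 4-OHT it had 12.9 and 9.93 RPKM in KO clones, against 8.75 and 8.35 RPKM in WT clones, a difference of 0.40 (-0.13 to 0.93). MRTO4 had 5.04 and 16.6 RPKM in KO clones with 4-OHT, against 20.3 and 24.1 RPKM in WT clones (-1.26, -2.74 to 0.22). UTP20 had 0.935 and 0.841 RPKM in KO clones with 4-OHT, against 0.523 and 0.398 RPKM in WT clones (0.82, -0.22 to 1.87). For RRN3 the difference with 4-OHT was -1.79 (-4.37 to 0.79), with clone 66 at 0. Without 4-OHT PNO1 had the smallest p, with 0.846 and 0.924 RPKM in KO clones, against 1.57 and 1.24 RPKM in WT clones (-0.60, -1.29 to 0.08).

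KO and WT clones did not overlap with 4-OHT for 9 members higher and 8 lower in KO, beside 19.1% and 18.5% of all genes, and without 4-OHT for 5 and 5, beside 18.9% and 20.7%. UBTF had 6.55 and 6.41 RPKM in KO clones without 4-OHT, against 6.70 and 7.62 RPKM in WT clones, a difference of -0.14 with an interval of -0.63 to 0.35. SBDS differed by 0.01 (-0.63 to 0.64) with 4-OHT and by 0.04 (-0.39 to 0.48) without it. Leaving out KO clone 69 with 4-OHT made 3 members higher and 5 lower in KO (6.52% and 10.9%), from clone 66 alone, beside 4.35% and 12.8% of all genes.

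**Figure D4:**
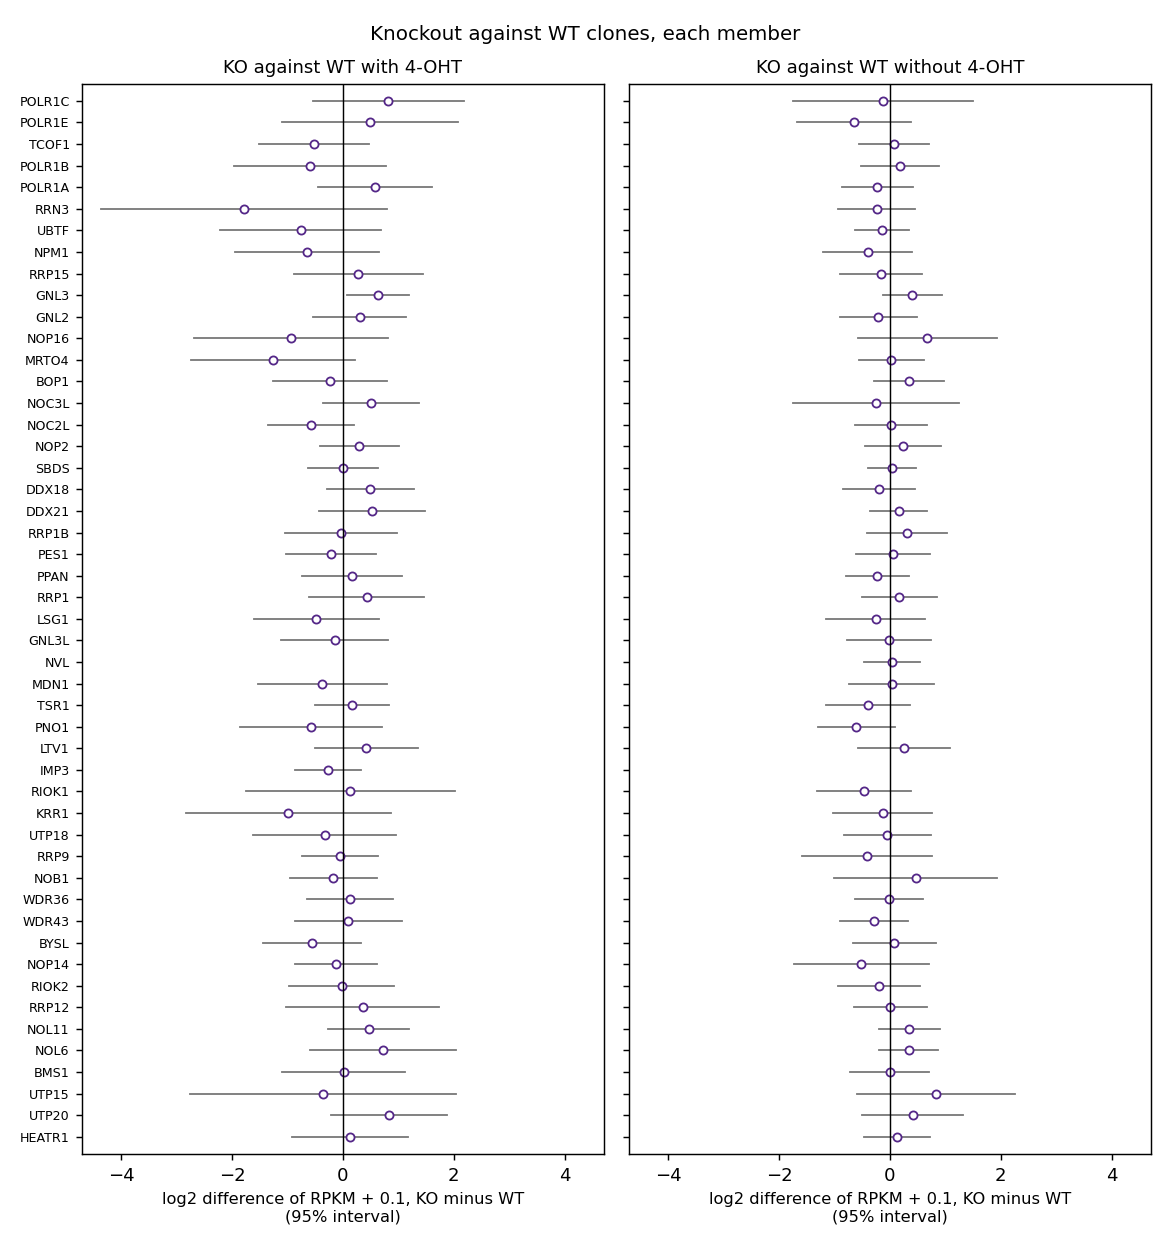
Log2 difference of RPKM + 0.1, KO minus WT (horizontal axes, points with 95% intervals), for each gene with 4-OHT (left) and without it (right). Every interval but that of GNL3 with 4-OHT (0.08 to 1.20) includes 0. NVL had too few reads with 4-OHT and IMP3 too few without it.

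Other genes of the pathway, taken from lists drawn up with earlier results of these data known, were counted in the same way. Of 29 further large-subunit factors 7 rose and 0 fell in KO clones, and 7 rose and 0 fell in WT clones (24.1% in each), beside 15.8% and 9.56% of all genes in KO and 12.6% and 7.03% in WT clones, at medians of 0.43 and 0.72. NSA2, PAK1IP1, RPF1, RSL1D1 and RSL24D1 were among those called in both genotypes. Of 29 further small-subunit factors 6 rose and 1 (UTP14A) fell in KO clones, and 8 rose and 0 fell in WT clones (20.7% and 27.6% higher), at medians of 0.32 and 0.54, with DCAF13, DDX47, RRP7A and UTP11 called in both. Of 7 further polymerase I genes 1 rose in each genotype, NOLC1, a nucleolar phosphoprotein that binds the polymerase and small nucleolar ribonucleoproteins. Their median was 0.67 in KO and 1.06 in WT clones, and 0.36 and 0.82 with median-ratio scaling. As deposited, 4 of the 7 in KO and 6 of the 7 in WT clones had positive changes. These medians lie on the other side of 0 from those of the polymerase I genes of the set, -0.60 and -0.24. With the clone as a block 6 of the 29 large-subunit genes rose in KO (20.7%) and 5 in WT clones (17.2%), where PAK1IP1 was lost. Of the 29 small-subunit genes 4 rose in each (13.8%), with RRP7A lost in both genotypes and UTP14A in KO clones. Of all genes, 12.2% rose in KO and 9.36% in WT clones with that block. NOLC1 was called in KO clones only, as it was with median-ratio scaling. With that scaling 5 large-subunit genes rose in KO and 3 in WT clones, and small-subunit genes split into 4 higher and 4 lower in KO and 5 higher and 1 lower in WT clones.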

How the data were processed

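Ribosome footprints of 8 libraries were deposited as 2 tables, without 4-OHT (11546 genes) and with it (11079 genes), 10685 genes being in both. The tables name no unit. The sum of values times gene spans was almost equal across libraries, so the deposited values were read as RPKM over that span (spans from RefSeq, GRCh38.p14, for all but 101 genes of each table). STAR and GRCh38 are named in the submitters' processing notes, and the labels' protocols cite the profiling methods of McGlincy and Ingolia. Not given in the sources used here are the counter, the annotation, and how strand and multi-mapping reads were handled.

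Low values fall in steps of 1 read per library, with 74.1% to 83.7% of them within 0.1 of a whole number, which gave approximate reads and depths. Intervals on reads cover counting error only and not the spread between clones. They may be too narrow even for counting error, since copies made by PCR are not independent molecules. Genes with at least 10 such reads in at least 2 libraries were tested with limma-trend (limma 3.58.1, R 4.3.3) on log2(RPKM + 0.1), since an added 1 exceeds the median value of every library. The 4-OHT comparisons and their difference used all 8 libraries (4 residual degrees of freedom), and KO against WT the 4 libraries of 1 table (2 residual degrees of freedom). P-values were adjusted by Benjamini-Hochberg over all genes tested. They rest on the spread between the 2 clones within each group, pooled over the groups in the fit and drawn toward the trend over all genes. Scripts were tested on simulated data.

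Same-numbered libraries are the same clone and so are paired. Their deviations from the group means correlated at 0.049 in KO and 0.099 in WT clones. The blocked value stands beside a result where it changes the call. Alternatives were the added constant, the filter, scaling, library weights, limma-voom, the clone as a block, the libraries in the fit, and each library left out in turn. Named genes are those called, the 2 of each class with the smallest p, and a fixed panel (UBTF, POLR1A, POLR1B, TCOF1, RRN3, NCL, NPM1, NOP16, SBDS, NMD3, PNO1 and NOB1), and a few others, such as MDN1, HEATR1 and PES1, were chosen after their values were seen. The genes of the set, the lists and the tests were chosen with earlier results of these data known.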

Additional observations from a re-analysis of the deposited data

How the results depend on the processing

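Counts of calls moved with the test, and no named gene changed sign while called under any alternative. Across the named genes and settings, 269 values in KO and 248 in WT clones kept their side of the threshold for the change with 4-OHT. Another 47 and 53 lost the call and 8 and 22 gained it. Values that changed sign while uncalled in both fits count among those kept. Changing the added constant to 0.5 or 1, dropping the filter, or leaving out ribosomal protein, histone and mitochondrial genes kept each count of calls within 1.5 times. In KO clones array weights gave 1191 genes and 5 members called for the change with 4-OHT, a fit on the 4 KO libraries alone 997 and 2, and limma-voom 15 members without and 15 with the clone as a replicate block. In WT clones array weights gave 2737 genes and 16 members, limma-voom 2968 and 19, limma-voom with the replicate block 3076 and 21, median-ratio scaling 5 members and the replicate block 6 members. For the difference of responses limma-voom called 4 genes and limma-voom with the replicate block, chosen after seeing the data, 13. Between genotypes limma-voom called 52 genes with 4-OHT and 61 without it. The cause was not tested. Calls that the replicate block changed are given beside the results, and it changed no others among the genes named.

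With each library left out in turn, calls for 4-OHT ran from 921 to 3638 genes and 2 to 21 members in KO clones, and from 662 to 2402 genes and 2 to 14 members in WT clones. In KO clones the lowest counts came without KO clone 66 without 4-OHT and the highest without KO clone 69 with 4-OHT, and leaving out KO clone 69 without 4-OHT gave 1419 genes. In WT clones leaving out any of the 4 WT libraries gave 2 or 3 members, and leaving out KO clone 66 without 4-OHT gave 6. The difference of responses ran from 0 to 410 genes and 0 to 2 members, KO against WT with 4-OHT from 0 to 1141 genes and 0 to 8 members, and without 4-OHT from 0 to 67 genes and 0 to 0 members. The highest of these came without KO clone 69 (with 4-OHT, with 4-OHT and without 4-OHT in turn), which leaves clone 66 to stand alone. The lone library was assumed to vary like the other groups. The 2 planned negative-binomial count tests were not run, since the reads are only approximate. Depth limits what clone 66 with 4-OHT can show.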

Other observations

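The RNA exosome, the nuclease complex that trims ribosomal RNA ends, and its helpers were also measured. Of 10 such genes tested, 2 rose and 0 fell with 4-OHT in KO clones (EXOSC1 and EXOSC4), and 2 rose and 0 fell in WT clones (EXOSC1 and EXOSC8), by limma-trend with adjusted p under 0.05, which is 20% in each, beside 15.8% of all genes higher in KO and 12.6% in WT clones. The median log2 fold change was 0.94 in KO and 0.99 in WT clones, beside 0.11 and 0.16 over all genes tested. With median-ratio scaling the medians were 0.61 and 0.73. In KO against WT 0 of the 10 passed at either treatment, with 0 at an unadjusted p under 0.05, and limma-voom called 0.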
